A study of Mus musculus with 2 samples.

Results

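PO2 is the smaller of 2 proliferating clusters that the authors labelled within the osteogenic cells of the mouse coronal suture. Its osteogenic label was only partly borne out at E15.5, where *Sp7* and *Dlx5* could not be told from background. At that stage *Sp7* was lower still in PO1. Its members were the cells that carry the label PO2 in the deposited table of osteogenic and mesenchymal cells, matched by barcode to the count matrices. They were 35 of 5335 labelled E15.5 cells and 76 of 6830 labelled E17.5 cells, so 111 of 12165 in all. The other labels were PO1, with 173 and 363 cells, and 13 further clusters with 5127 and 6391 cells, namely the osteogenic OG1 to OG4, the ectocranial EC1 to EC4, the ligament-like LIG and the meningeal MG1 to MG4. The coronal suture is the fibrous joint between the frontal and parietal bones, and single-cell RNA sequencing with the 10x Genomics 3′ chemistry (version 2) counted unique molecular identifiers (UMIs), each standing for 1 captured RNA molecule.

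Both libraries came from wild-type mouse embryos of the C57/BL6 strain, with no transgene and no treatment. For E15.5, 10 sutures were pooled, digested with Collagenase II and Dispase for 45 min and cleared of dead cells with a removal kit. The E17.5 matrix joins 3 batches of 10, 3 and 3 pooled sutures from 2 litters, digested with Collagenase IV for 30 min and sorted for live cells. Its barcodes carry 3 suffixes, which hold 10, 29 and 37 PO2 cells, and the sources used here do not say which suffix is which batch. Stage, enzyme, cell selection and batch therefore changed together and cannot be told apart, embryos were pooled within libraries, and with 1 library per stage no test was run.

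A dividing cell copies its DNA in S phase, prepares for division in G2 and separates its chromosomes in M phase. Replication genes and most histone genes are transcribed towards and during S phase. Cyclin B, the mitotic kinases, kinetochore proteins, spindle motors and the anaphase-promoting complex with its activator CDC20 act in mitosis, and their genes are transcribed mainly in G2 and M, under a repressor and activator complex that acts at cell cycle homology regions (CHR) and CCAAT boxes of their promoters. The paper proposes that dividing pre-osteoblasts gather at the tips of the growing skull bones, apart from the osteoprogenitors of OG1.

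The promoters of leading mitotic genes of PO2 are shown first because the levels described further on turn on these genes. They belong to the 4 genes of the G2/M list with the highest levels in PO2 relative to PO1 among those whose promoter holds both motifs. Each stretch ends 1 base before the RefSeq start site in GRCm38.p6 and is written 5′ to 3′ on the strand of the gene. GENCODE places the starts of *Cdc20*, *Cenpa* and *Ube2c* within these stretches. Capitals mark a CHR (TTTGAA or TTTAAA, on either strand) or a CCAAT box (CCAAT, on either strand).
*Cenpf*, chr1:189688087-189688336, minus strand: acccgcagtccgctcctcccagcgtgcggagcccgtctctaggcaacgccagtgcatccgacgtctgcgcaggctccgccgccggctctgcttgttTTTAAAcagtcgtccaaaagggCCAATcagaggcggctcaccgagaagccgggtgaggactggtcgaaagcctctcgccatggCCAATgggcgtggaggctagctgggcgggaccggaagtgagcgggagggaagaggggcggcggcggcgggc
*Cdc20*, chr4:118437344-118437493, minus strand: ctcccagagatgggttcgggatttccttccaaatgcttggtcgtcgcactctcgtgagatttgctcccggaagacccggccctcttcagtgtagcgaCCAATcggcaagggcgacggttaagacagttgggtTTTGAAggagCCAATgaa
*Cenpa*, chr5:30666736-30666885, plus strand: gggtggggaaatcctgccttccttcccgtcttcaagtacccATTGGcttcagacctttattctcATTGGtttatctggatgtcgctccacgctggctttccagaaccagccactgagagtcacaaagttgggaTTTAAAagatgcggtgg
*Ube2c*, chr2:164769679-164769928, plus strand: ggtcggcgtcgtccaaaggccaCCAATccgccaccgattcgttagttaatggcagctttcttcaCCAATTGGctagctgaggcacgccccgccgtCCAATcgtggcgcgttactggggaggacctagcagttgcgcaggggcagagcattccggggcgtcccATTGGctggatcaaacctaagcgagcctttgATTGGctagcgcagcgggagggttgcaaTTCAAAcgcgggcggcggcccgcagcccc

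In the *Cenpf* stretch the CHR began 154 bases before the start and the CCAAT boxes began 132 and 71 bases before it. In *Cdc20* the CHR began 18 bases before the start, with CCAAT boxes 53 and 8 bases before it. In *Cenpa* the CHR began 17 bases before the start, with CCAAT boxes 109 and 86 bases before it. Of the 54 genes of the G2/M list, 47 had a promoter in the RefSeq table, and 23 of these (48.9%) held both motifs in the 250 bases before the start, against 11.2% of 27025 promoters. The 22 G2/M genes that were at least 2-fold higher in PO2 than in PO1 and the 32 that were not held both motifs at similar shares, 52.6% of the 19 and 46.4% of the 28 with a promoter. The motif pair therefore went with the list as a whole and did not set apart the genes that were highest in PO2. A promoter of the S list is printed for *Hells*, a chromatin remodeller whose smaller fold of PO1 over PO2 in the 2 libraries was 4.87. It was picked as the S list gene with the highest such fold among those whose promoter holds an E2F site. *Ccne2* of the same list, with a larger fold of 19.5, was passed over by this rule. Capitals mark the E2F site (TTTCCCGC, TTTGGCGC or TTTCGCGC, either strand), so its presence follows from the choice.
*Hells*, chr19:38930840-38930989, plus strand: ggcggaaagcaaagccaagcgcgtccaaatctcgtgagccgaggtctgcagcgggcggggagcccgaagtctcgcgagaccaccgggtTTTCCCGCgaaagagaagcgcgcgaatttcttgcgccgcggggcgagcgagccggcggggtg

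For the S list and the replication genes the same count is void, because only 31 of 43 and 23 of 30 genes had a promoter in the table. A match of letters is a description of the sequence only.

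Each PO2 cell was sequenced deeply. The 35 cells at E15.5 held 7554, 14428 and 20394 UMIs (lowest, median and highest), and the 76 cells at E17.5 held 8718, 21847 and 32296. The medians of PO1 were 11565 and 19957 UMIs and those of the 13 other clusters were 8381 and 11913, so PO2 had the highest median of these 3 groups in both libraries. Summed over cells, PO2 held 484155 UMIs in the E15.5 and 1619530 in the E17.5 library, and levels are given below as CPM, the UMIs of a gene scaled to the same total in each group. Intervals are exact 95% intervals, Poisson for levels and folds and Clopper-Pearson for shares, and cover counting error only. Of the PO2 cells, 1 of 35 and 0 of 76 had a doublet score at or above the 94th percentile of their barcode suffix, against 501 of 8210 and 558 of 8767 of all cells, and 3 PO2 barcode sequences recurred in the other library or under another suffix, 1 of them in PO2 of both libraries.

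Part of the label was not borne out at E15.5, where *Sp7* and *Dlx5* could not be told from background. This was not particular to PO2, since its *Sp7* level was 5.27 times that of PO1 at E15.5, on few UMIs in both. Summed over the 12 listed osteogenic factors, PO2 stood at 849 CPM there, rank 3 of the 15 clusters, against 713 in PO1. The 13 other clusters ran from 447 in EC2 to 1127 in OG4. Of the PO2 sum, *Zeb2*, *Atf4* and *Tcf12* held 277, 242 and 171 CPM. Over genes outside the cell cycle lists, 91.4% of E15.5 PO2 cells were nearest to OG1 to OG4. Myeloid cells of the same libraries, which should lack the transcription factors of bone, served as the background for free RNA, with median depths of 9949 and 9798 UMIs. *Runx2*, the master factor of the osteoblast lineage, reached 31.0 CPM in PO2 at E15.5 (17.3 to 51.1), above the 8.18 CPM of the myeloid cells and well below the 192 of OG4. *Sp7*, which acts after it, reached 10.3 CPM (3.35 to 24.1) from 5 UMIs in 3 cells, against 3.41 in the myeloid cells. *Dlx5* reached 4.13 CPM (at most 14.9) from 2 UMIs in 1 cell, against 1.02. The intervals of *Sp7* and *Dlx5* thus held the background and that of *Runx2* did not. At an equal depth of 5000 UMIs each of *Runx2*, *Sp7* and *Dlx5* was found in 1 of 35 PO2 cells (2.86%, 0.0723 to 14.9), and without thinning in 34.3%, 8.57% and 2.86%. In 252 thinned myeloid cells the shares were 1.19%, 0.794% and 0.794%, and those of PO2 could not be told from them at this depth. At E17.5 the same genes were found in 31, 34 and 46 of 76 thinned PO2 cells, against 6.97%, 4.71% and 4.33% of 531 thinned myeloid cells. The members are therefore called here by their label PO2, and the proliferation markers *Cenpf*, *Mki67* and *Top2a* had UMIs in all 35 and all 76 members.

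The share of PO2 among labelled cells was 0.656% (0.457 to 0.911) in the E15.5 library and 1.11% (0.878 to 1.39) in the E17.5 library. Within the E17.5 matrix the shares were 0.81%, 1.05% and 1.31% under suffixes 1, 2 and 3. Within PO1 and PO2 together, PO2 made up 16.8% (12 to 22.6) of the earlier and 17.3% (13.9 to 21.2) of the later cells. Of the 6 osteogenic clusters PO2 held 2.72% (1.9 to 3.76) and 2.22% (1.75 to 2.77), with the order of the stages the other way than over all labelled cells. The intervals of the stages overlapped for each denominator, so no order of the stages is read from these shares. The enzymes and cell selection that differ between the libraries also bear on them.

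The cell cycle position of PO2 was narrow. The deposited scores for the G2/M gene list had medians of 1.13 and 1.09 in PO2 and did not fall below 0.765 and 0.706, whereas the medians of PO1 were 0.581 and 0.602. The scores for the S list were close to 0, with medians of -0.00757 and 0.0110 in PO2 against 0.427 and 0.377 in PO1. No PO2 cell had a higher S than G2/M score, against 38.2% and 31.4% of PO1 cells. The clusters were built on these cells, so these values describe the label and do not test it.

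The same was computed from the UMIs as a share of each cell's total. Genes of the G2/M list took 1.45%, 2.38% and 3.31% (lowest, median and highest) of the UMIs of an E15.5 PO2 cell and 1.17%, 2.01% and 3.29% of those of an E17.5 PO2 cell. Genes of the S list took a median of 0.156% and 0.158%. PO1 cells had lower G2/M medians of 1.14% and 1.06% and higher S medians of 0.532% and 0.411%, and the 13 other clusters had 0.133% and 0.121% for G2/M. For the S list the 13 other clusters had medians of 0.0906% and 0.0790%, so PO2 lay between them and PO1 for S and above both for G2/M.

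**Figure D1:**
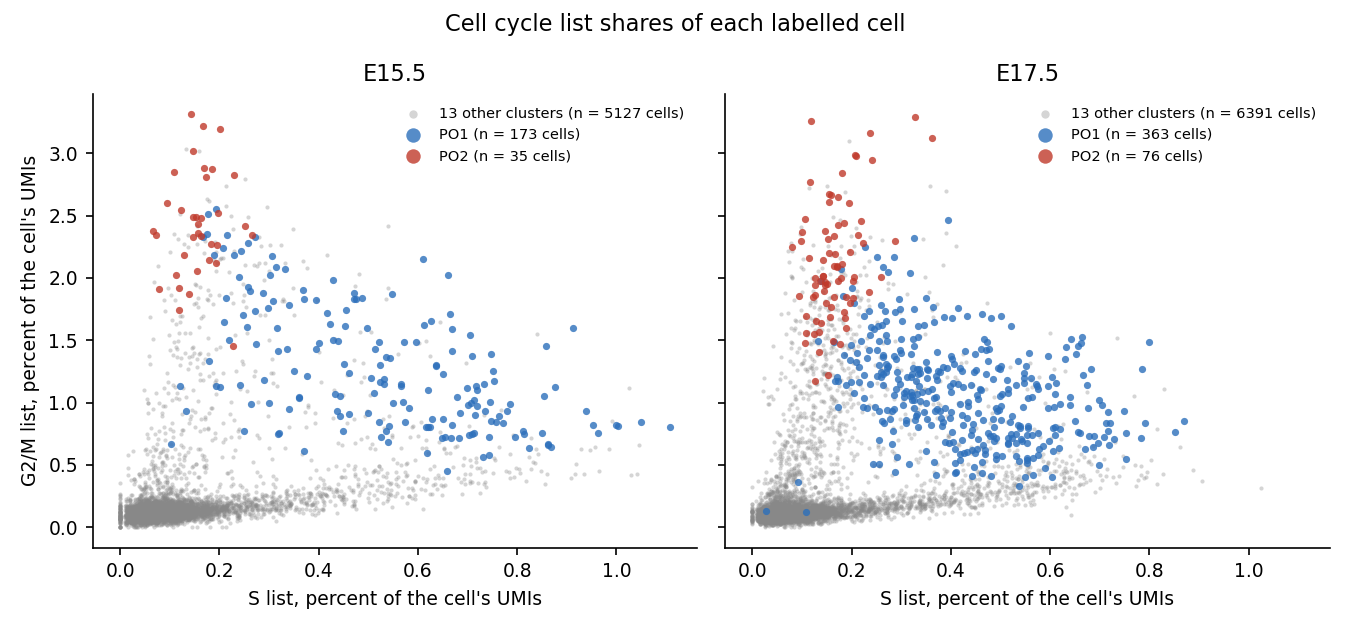
Each point is 1 labelled cell, with the share of its UMIs in the S list on the x axis and in the G2/M list on the y axis, both in percent, for E15.5 (left) and E17.5 (right), coloured as PO2, PO1 or the 13 other clusters. PO2 cells sit at 1.45% to 3.31% and 1.17% to 3.29% of G2/M UMIs and at the low end of the S axis, and PO1 cells spread out along the S axis.

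PO2 did not hold every labelled cell with this much G2/M RNA. At or above the lowest PO2 share there were 209 labelled cells at E15.5, of which 35 (16.7%) were PO2, 58 were PO1 and 116 belonged to the 13 other clusters. At E17.5 there were 501 such cells, of which 76 (15.2%) were PO2, 140 were PO1 and 285 were others, and among the 13 other clusters OG2 had the highest share, 12.3% of its cells. Of the cells of the 13 other clusters, 79 and 262 also had an S share within the PO2 range. At or above the PO2 median there were 18 PO2, 2 PO1 and 16 other labelled cells of E15.5, and 38 PO2, 9 PO1 and 46 other labelled cells of E17.5. The label therefore marks a part of the cells with high G2/M RNA in these libraries and not all of them. The authors regressed cell cycle scores in each dataset before they clustered the cells, and the bearing of that step was not tested.

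The comparison with PO1 separates the phases within the proliferating cells. Mitotic genes such as *Cenpf* and *Cdc20* were 4.71-fold or more higher in PO2 in both libraries, and the S phase histone gene *Hist1h1b* was 27.3-fold or more higher in PO1. Of 8135 genes with at least 20 UMIs in the 2 clusters together in each library, 78 (0.959%) were at least 2-fold higher in PO2 than in PO1 in both libraries and 152 (1.87%) were at least 2-fold lower. These counts and all folds in this comparison are descriptions, because the clusters were defined on the same cells.

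Genes were ranked by the smaller of their folds in the 2 libraries. The first was *Cenpf* (chr1:189640606-189688086 in GRCm38), which encodes a large protein of the outer kinetochore that builds up in G2. *Cenpf* stood at 1392 CPM in PO2 and 275 in PO1 at E15.5, and at 849 and 169 at E17.5. It was 5.07-fold (4.52 to 5.68) and 5.01-fold (4.64 to 5.42) higher in PO2, and the 13 other clusters had 51.5 and 46.6 CPM. The suffixes at E17.5 gave 885, 808 and 871 CPM in PO2, so its level varied little among them. *Cdc20* (chr4:118432901-118437352), the activator of the anaphase-promoting complex, stood at 791 and 904 CPM in PO2 and at 168 and 167 in PO1, folds of 4.71 (4.06 to 5.47) and 5.41 (5.01 to 5.84). *Ccnb1* (chr13:100778650-100786570), the cyclin that drives entry into mitosis with CDK1, stood at 892 and 848 CPM against 218 and 156. *Cenpf*, *Cdc20* and *Ccnb1* thus showed intervals of PO2 and PO1 that were far apart at both stages.

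The remaining genes among the first 10 were mostly of the spindle, the centromere and the G2/M switch. *Cenpa*, the histone H3 variant that marks centromeres, stood at 818 and 882 CPM in PO2 against 182 and 187 in PO1. *Cdc25b*, the phosphatase that activates CDK1, was 4.79- and 3.99-fold higher, and *Cdkn3*, a phosphatase of CDKs, 4.12- and 4.23-fold. *Tuba1c*, an alpha-tubulin, was 4.89- and 3.95-fold higher. *Arl6ip1*, which encodes a membrane protein of the endoplasmic reticulum, had 2441 and 1691 CPM in PO2 against 550 and 405 in PO1. *Sapcd2*, whose product takes part in spindle orientation, was 5.44- and 4.47-fold higher, and *Cep89*, a component of centriole appendages, rested on 34 and 133 UMIs and was 4.63- and 8.18-fold higher.

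By role, the spindle genes were the most often higher. Of 30 genes of the spindle and cytokinesis, 14 were at least 2-fold higher in PO2 than in PO1 and none lower, with median log2 folds of 1.05 and 1.11 in the earlier and later library, against -0.01 and 0.02 over all genes tested. *Aspm*, which focuses spindle poles, had 240 and 125 CPM in PO2 against 47.0 and 34.7 in PO1. *Knstrn*, which takes part in chromosome alignment, had 287 and 280 CPM against 72.0 and 82.9. The spindle genes were thus higher on balance at both stages, with no member past the limit in the other direction.

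Of 9 genes of the spindle checkpoint and the anaphase-promoting complex, *Cdc20*, *Ube2c* and *Fzr1* were at least 2-fold higher and none lower, with median log2 folds of 0.93 and 1.00. *Ube2c*, the ubiquitin-conjugating enzyme of that complex, had 1431 and 1151 CPM in PO2 against 379 and 338 in PO1. Of 10 genes of the mitotic kinases and the chromosomal passenger complex, *Aurka*, *Nek2* and *Bora* were at least 2-fold higher and none lower. *Aurka*, the kinase of maturing centrosomes, had 217 and 316 CPM against 101 and 119, and *Plk1*, a kinase of many mitotic steps, had 184 and 272 CPM, with folds of 1.96 and 2.79 that missed the limit at E15.5. *Aurkb*, the kinase of the passenger complex, was closer to PO1 with folds of 1.35 and 1.26. The kinases thus did not move as 1 block, and those of the centrosome had higher folds than *Aurkb*.

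Of 23 genes of the centromere and kinetochore, *Cenpa*, *Cenpe* and *Cenpf* were at least 2-fold higher and *Cenpu* was at least 2-fold lower. *Ndc80*, which binds microtubules at the kinetochore, had folds of 0.817 (0.558 to 1.17) and 1.21 (0.980 to 1.49). Of 15 genes of chromosome condensation and cohesion none was 2-fold higher, and *Ncapg2* and *Esco2* were at least 2-fold lower. *Esco2*, which makes sister chromatids cohere during S phase, had 64.0 and 40.8 CPM in PO2 against 169 and 110 in PO1. Most kinetochore and condensin genes were thus within 2-fold of PO1, as were most genes tested.

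The proliferation genes in widest use differed less from PO1, and none passed 2-fold. *Top2a*, the topoisomerase that untangles chromosomes, had 1012 and 723 CPM in PO2 and 968 and 721 in PO1, folds of 1.05 (0.945 to 1.16) and 1.00 (0.940 to 1.07). *Mki67*, which coats mitotic chromosomes, had 500 and 267 CPM against 298 and 195, folds of 1.68 (1.44 to 1.95) and 1.37 (1.23 to 1.53). *Hmgb2*, a chromatin protein, had folds of 1.10 (1.03 to 1.18) and 1.24 (1.19 to 1.30). The interval of *Top2a* held 1 in both libraries, and those of *Mki67* and *Hmgb2* lay above 1 by less than the folds of *Cenpf* and *Cdc20*.

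**Figure D2:**
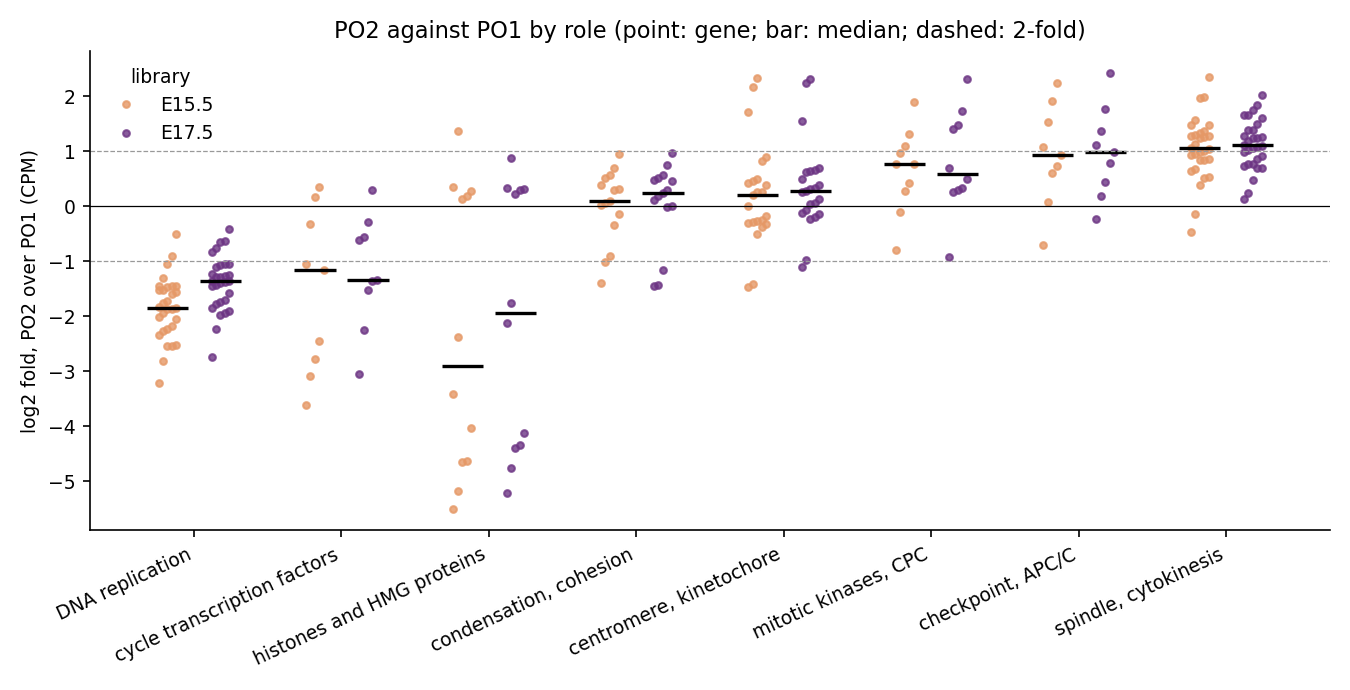
Each point is 1 gene, placed by the log2 fold of its CPM in PO2 over PO1 (y axis) and by its role (x axis), separately for the E15.5 and E17.5 libraries, with bars at the medians and dashed lines at 2-fold. Spindle genes lie mostly above 0 with medians of 1.05 and 1.11, and replication genes lie below 0 with medians of -1.84 and -1.36.

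In the other direction, S phase genes were lower in PO2. All 43 genes of the S list were lower in PO2 than in PO1 in both libraries, 33 of them at least 2-fold, with median log2 folds of -1.87 and -1.40. Of 30 replication genes 24 were at least 2-fold lower and none higher. *Pcna*, the sliding clamp of the replication fork, had 28.9 and 40.1 CPM in PO2 against 204 and 150 in PO1. *Mcm6*, a subunit of the replicative helicase, had 20.7 and 23.5 CPM against 121 and 110. *Ccne2*, the cyclin of the entry into S phase, had 2 and 5 UMIs in PO2, or 4.13 and 3.09 CPM, against 83.7 and 60.2 in PO1.

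Several of these genes were lower in PO2 than even in the clusters that mostly do not cycle. The 13 other clusters had 57.1 and 56.6 CPM of *Pcna*, 61.3 and 57.0 of *Mcm6* and 29.3 and 19.0 of *Ccne2*, each above PO2. *Rrm2*, a subunit of ribonucleotide reductase, was the opposite case, with 82.6 and 130 CPM in PO2 against 52.5 and 68.1 in the 13 other clusters and 419 and 389 in PO1. Of the 43 S genes, 5 were at least 2-fold higher and 8 at least 2-fold lower in PO2 than in the 13 other clusters, where 3.5% and 12% of all genes were. The list as a sum stood at 1603 and 1618 CPM in PO2 against 1434 and 1359 in the 13 other clusters, with members on either side.

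The histone genes showed the widest gap to PO1. *Hist1h1b* (chr13:21779883-21780625), a linker histone, had 22.7 CPM in PO2 at E15.5 from 11 UMIs and 9.26 at E17.5 from 15 UMIs, against 826 and 253 in PO1, which was 36.4- and 27.3-fold higher. *Hist1h2ap*, an H2A gene, had 35.1 and 15.4 CPM against 871 and 576. *Hist1h2ae*, *Hist1h1e* and *Hist1h1a* were also among the 10 genes with the largest folds in this direction, as were *Chaf1b*, a subunit of the factor that loads histones behind the replication fork, and *Wdr76*. *Hist2h2ac* and *Hist1h2ab*, in the same group, rest on 2 and 1 UMIs in PO2 in each library. Genes of the histone clusters are near-identical copies and most of their transcripts carry no poly(A) tail, so levels of single copies are uncertain in a 3′ assay primed from poly(A). *H2afx*, the H2A variant outside this group, was the reverse, with 822 and 953 CPM in PO2 against 318 and 519 in PO1.

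**Figure D3:**
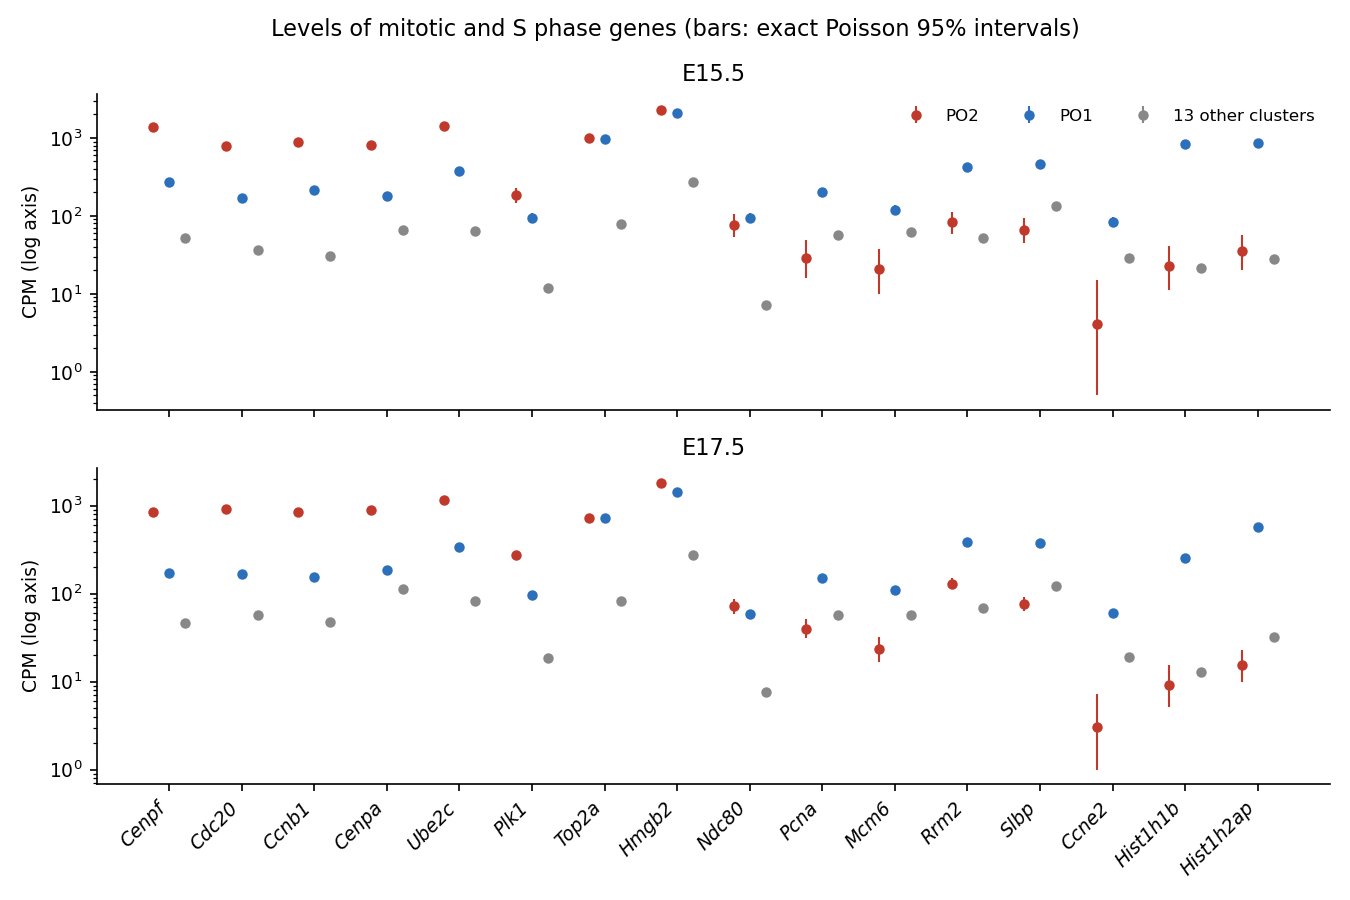
Levels in CPM (log axis) of mitotic and S phase genes (x axis) are plotted for PO2, PO1 and the 13 other clusters at E15.5 and E17.5, with bars for exact Poisson 95% intervals. *Cenpf* stands at 1392 and 849 CPM in PO2, above PO1 and the rest, *Top2a* is level with PO1, and *Hist1h1b* at 22.7 and 9.26 CPM lies below PO1.

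Among the transcription regulators of the cycle, none was at least 2-fold higher in PO2 than in PO1. Of 9 tested, *E2f1*, *E2f2*, *E2f7*, *E2f8* and *Mybl2* were at least 2-fold lower in PO2, and 0 had a fold above 1 in both libraries. *E2f1* had 1 UMI in PO2 at E15.5 and 17.3 CPM at E17.5, against 25.5 and 49.9 CPM in PO1. *Foxm1*, an activator of G2/M genes, had folds of 1.28 (0.629 to 2.42) and 0.826 (0.548 to 1.21), which counting error does not tell from 1. Of 11 cell cycle inhibitors and p53 target genes none passed 2-fold, where 0.959% and 1.87% of all genes tested were higher and lower. *Cdkn1a*, the inhibitor p21, had 132 and 46.3 CPM in PO2 against 206 and 73.3 in PO1.

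Against the 13 other clusters the mitotic genes stood far higher. Of 13343 genes tested, 467 (3.5%) were at least 2-fold higher in PO2 in both libraries and 1595 (12%) at least 2-fold lower. *Ccnb1* was 29.4- and 17.7-fold higher, *Cenpf* 27.1- and 18.2-fold and *Sapcd2* 28.9- and 16.7-fold. *Nek2*, a centrosomal kinase, had 62.0 and 79.0 CPM in PO2 against 2.63 and 4.62 in the others. *Kpna2*, an importin, had 295 and 213 CPM against 16.3 and 12.8, and *Neurl1b*, a ubiquitin ligase of Notch ligands and the first by rank, rested on 5 and 21 UMIs. *Troap* and the kinesin *Kif18b* completed the 10 genes with *Cdc20* and *Aurka*. All 23 kinetochore genes, all 9 checkpoint genes, all 10 kinase genes and all 30 spindle genes were at least 2-fold higher, and so were 12 of the 15 condensation genes.

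The lower genes included most bone matrix genes. Of 12 osteoblast genes tested, 11 were at least 2-fold lower in PO2 than in the 13 other clusters in both libraries. *Ibsp*, which encodes bone sialoprotein, had 28.9 and 101 CPM in PO2 against 1686 and 1825, and *Ifitm5*, a marker of osteoblasts, had 4.13 and 35.2 against 139 and 451. At E17.5 both were also below PO1, which had 335 CPM of *Ibsp* and 126 of *Ifitm5*. The 13 clusters include OG4, which held 41200 and 13640 CPM of *Ibsp*. Among the 15 clusters PO2 was the lowest for *Ibsp* in both libraries and for *Alpl* at E15.5, but at E17.5 it ranked 7 for *Alpl*, 5 for *Spp1* (63.0 CPM) and 3 for *Dmp1* (1.85 CPM). Against 12% of all genes, of 5 ectocranial marker genes 3 were at least 2-fold lower, of 8 ligament genes 2 and of 9 meningeal genes 6, and none was higher. These counts include genes with 0 UMIs in PO2. With 0 set to a limit of 3 UMIs, 5 of the 9 meningeal genes had a fold below 1 in both libraries.

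The transcription factors of the lineage were within 2-fold of PO1, as were most genes tested. None of the 7 osteogenic factors tested passed 2-fold against PO1, where 0.959% and 1.87% of all genes tested were higher and lower. *Sp7* and *Dlx5* had too few UMIs at E15.5 to be among the 7. Of the 7, 6 had a fold above 1 in both libraries, with median folds of 1.32 and 1.21. At E17.5, *Runx2* (chr17:44495987-44814797) had 125 CPM in PO2 (108 to 143) and 103 in PO1, *Dlx5* (chr6:6877805-6882085) had 182 and 153, and *Sp7* (chr15:102356606-102367182) had 156 and 180. Among the 15 clusters PO2 ranked 2 for *Runx2* and *Dlx5* and 5 for *Sp7* at E17.5, and 7, 8 and 5 at E15.5. *Sp7* under the 3 suffixes had 248, 121 and 157 CPM in PO2, a wider spread than that of *Cenpf*.

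The factors *Tcf12* and *Zeb2* were highest in PO2 of all 15 clusters at both stages. *Tcf12*, a partner of TWIST1 in the coronal suture, had 171 CPM (137 to 213) in the earlier and 122 (105 to 140) in the later library, against 127 and 79.8 in PO1 and at most 127 and 89.2 in any of the 13 others. *Zeb2*, a zinc finger repressor, had 277 and 195 CPM in PO2, against 223 and 138 in PO1 and at most 258 in OG2 at E15.5 and 173 in OG1 at E17.5. *Twist1* itself, a basic helix-loop-helix factor of the suture mesenchyme, had 86.8 and 128 CPM in PO2 against 64.6 and 111 in PO1. The intervals of *Twist1* in PO2 and PO1 overlapped at both stages, and those of *Tcf12* and *Zeb2* at E15.5, where the interval of *Zeb2* in PO2 (232 to 328) also held the level of OG2. *Gja1*, which encodes connexin 43, had 205 and 209 CPM in PO2 against 111 and 80.9 in PO1, and was thus 1.85- and 2.59-fold higher.

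**Figure D4:**
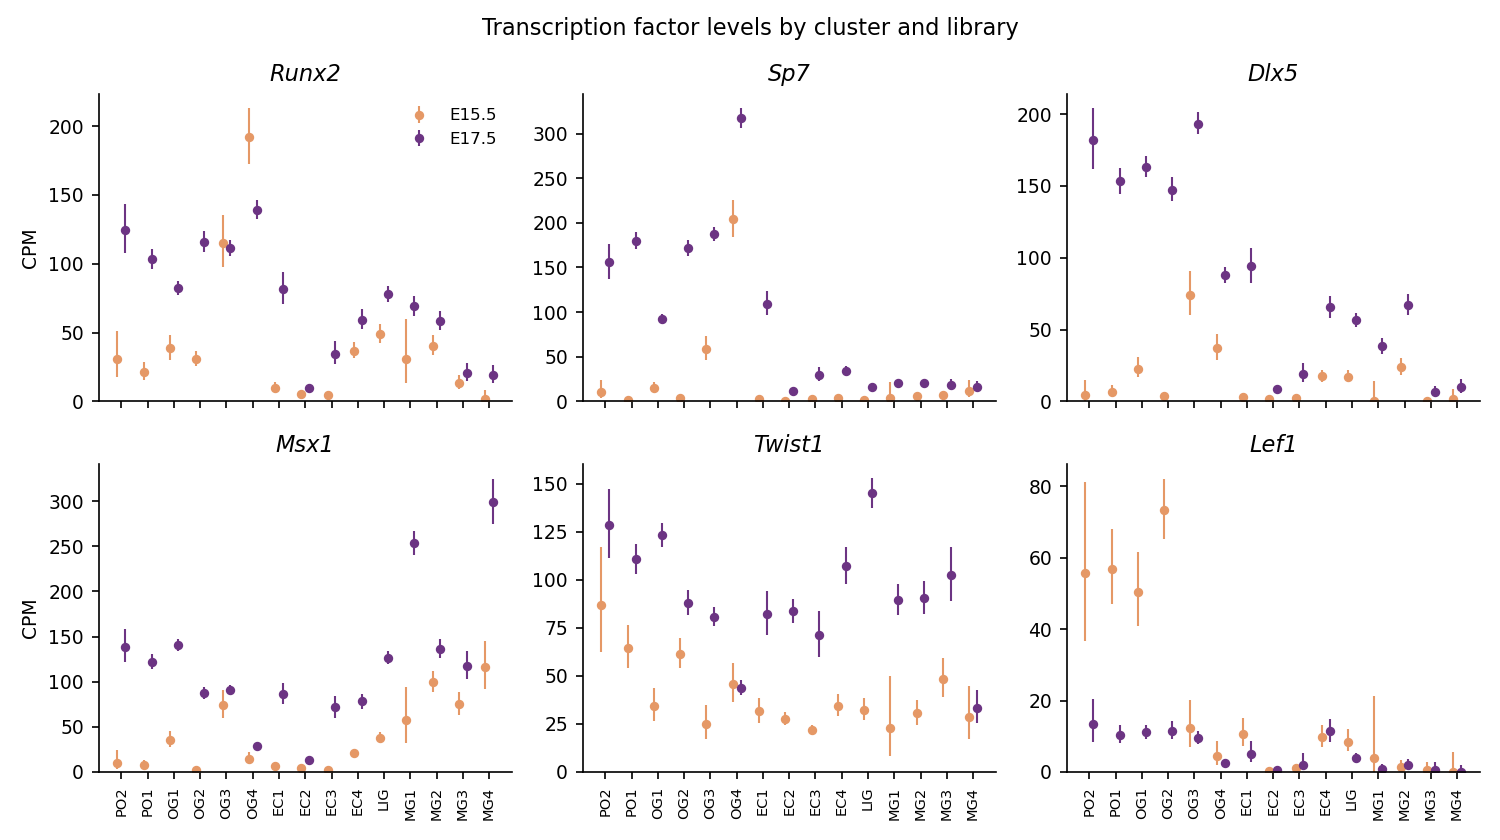
Levels in CPM of lineage transcription factors are plotted for each of the 15 clusters (x axis), with E15.5 and E17.5 side by side and exact Poisson 95% intervals as bars. In PO2, *Runx2* stands at 31.0 and 125 CPM and *Sp7* at 10.3 and 156 CPM.

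Markers of endothelial, muscle, glial, neuronal or pineal, and keratinocyte cells were at or near 0 in PO2, and several other lists were not. Summed over 7 genes, myeloid markers reached 26.9 and 143 CPM, against 49.4 and 166 in the 13 other clusters, with 2 of the 7 at 0 at E15.5. The 4 endothelial markers summed to 2.07 and 3.09 CPM, with 3 of them at 0 at E15.5, and the 3 muscle markers were at 0 in both libraries. The PO1 cells of E15.5 held 53.9 CPM of muscle markers. Summed chondrocyte markers stood at 213 and 93.2 CPM in PO2 and osteoclast markers at 169 and 225, near the lowest of the 15 clusters. Erythroid genes summed to 8000 and 511 CPM, the lowest of the 15 clusters at E15.5 and rank 12 from the highest at E17.5. Of 9 dissociation stress genes none passed 2-fold between PO2 and PO1, as for most genes tested. All 9 were lower in PO2 in both libraries, with median log2 folds of -0.28 and -0.47, and *Fos* had 1543 and 676 CPM in PO2 against 1934 and 1028. The part of this gap in the other folds was not tested.

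Apart from the listed cell cycle genes, PO2 cells were closest to the other osteogenic clusters. Each PO2 cell was given to the one of the 13 clusters of its library that made its counts most probable, over 1457 genes for E15.5 and 1579 for E17.5 that are outside the cell cycle lists and differ among the clusters. Genes such as *Kpna2* and *Troap*, high in PO2 but in none of those lists, were not taken out as cycle genes. The bearing of such genes on the choice of cluster was not tested. At E15.5, 30 of 35 PO2 cells (85.7%) went to OG2, 2 to OG3 and 1 each to EC1, EC3 and EC4. At E17.5, 32 of 76 went to OG1, 29 to OG2, 13 to OG3 and 2 to EC1. OG1 to OG4 thus took 91.4% (76.9 to 98.2) and 97.4% (90.8 to 99.7) of PO2, and no PO2 cell went to the osteoblast-like OG4.

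PO1 divided in a similar way. At E15.5, 135 of 173 PO1 cells (78%) went to OG2, and at E17.5, 162, 117, 61 and 10 of 363 went to OG1, OG2, OG3 and OG4. Cells of the 13 clusters, given with their own counts taken out, went to their own cluster in 79.1% and 80.3% of cases, and cells of the 9 clusters outside OG1 to OG4 went to one of OG1 to OG4 in 1.98% and 5.2%. The method was less sure for some clusters. At E15.5, 34.5% of OG1, 34.2% of EC1 and 3.57% of MG1 cells went to their own cluster, and EC1 cells went to OG1 to OG4 in 20% and 27.1%. Under suffix 1 of E17.5, 2, 4 and 4 PO2 cells went to OG1, OG2 and OG3, under suffix 2 it was 13, 13 and 3, and under suffix 3 it was 17, 12 and 6, so the 3 clusters were present under each suffix.

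**Figure D5:**
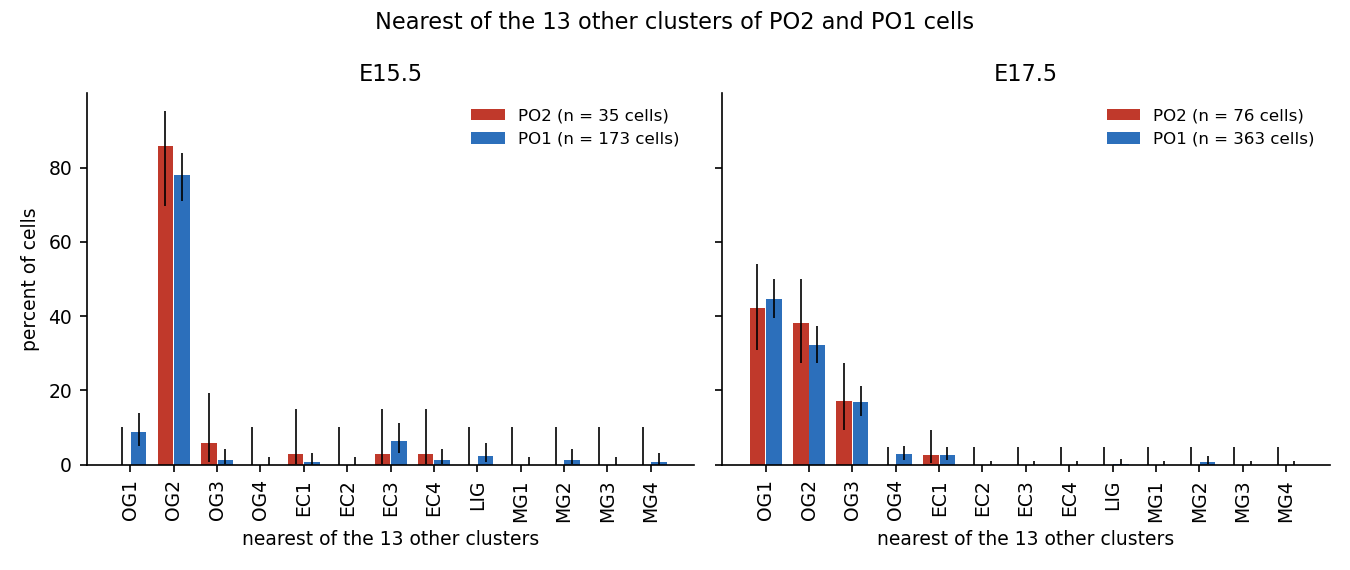
The percent of PO2 and of PO1 cells (y axis) given to each of the 13 other clusters (x axis) is plotted for E15.5 and E17.5. At E15.5 OG2 takes 85.7% of PO2 and 78% of PO1, and at E17.5 the cells are spread over OG1, OG2 and OG3.

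The factors that mark those clusters were present in part. *Lef1*, a Wnt pathway factor and one of the OG2 markers, had 55.8 CPM in PO2 at E15.5 and 13.6 at E17.5, against 73.4 and 11.6 in OG2. The other OG2 markers were *Inhba*, with 64.0 and 10.5 CPM in PO2 against 38.2 and 17.3 in PO1, and *Tcf7*, with 10.3 and 28.4 CPM against 9.30 and 64.1. The 3 genes together had 130 and 52.5 CPM in PO2 against 104 and 91.9 in PO1. The OG3 markers *Mmp13* and *Podnl1* were at 0 in PO2 at E15.5 and at 1.85 and 3.71 CPM at E17.5, against 185 and 42.9 in OG3, although 13 of 76 cells went to that cluster. *Erg*, an OG1 marker, was found in 12 of 76 PO2 cells at E17.5 after thinning (15.8%, 8.43 to 26; 43.4% unthinned). At E15.5 no cluster of the 13 had more than 9.10 CPM of *Erg*, which is too low for the shares of cells to be read. In myeloid cells of E17.5 the thinned share of *Erg* was 1.51%.

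Between the stages, the mitotic genes tested differed little in PO2, and the lineage and matrix genes that passed the filter differed more. Of 5008 genes with at least 50 UMIs in PO2 over both libraries, 500 (9.98%) were at least 2-fold higher at E17.5 and 386 (7.71%) at least 2-fold lower. PO2 held 1619530 UMIs at E17.5 against 484155 at E15.5. Genes high only at E17.5 thus passed this filter more easily than genes high only at E15.5. Of the 500, 266 (53.2%) passed the same limit in PO1 and 166 (33.2%) in the 13 other clusters, and of the 386 it was 244 (63.2%) and 139 (36%). In neither of them did 219 of the 500 and 136 of the 386 pass it. Part of what differed between the stages in PO2 thus differed in other cells of the libraries too, and part did not pass the limit there. The shares of all 5008 genes past the limit in those cells were not counted.

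None of the 54 G2/M genes was 2-fold higher at E17.5 and 2 were 2-fold lower, with a median fold of 0.848. The *Cdc20*, *Ccnb1* and *Cenpa* levels given above differed by less than 1.2-fold between the stages, whereas *Cenpf* and *Mki67* were lower at E17.5 by factors of 1.64 and 1.87. Of 10 osteogenic transcription factors tested, 6 were at least 2-fold higher at E17.5 and *Atf4* was lower, with a median fold of 5.36 in PO2 and 4.86 in PO1. Several of these factors passed the filter almost only through their UMIs at E17.5, so this count is tilted and does not measure the list. *Dlx5* was 44.1-fold higher, from 2 UMIs at E15.5, *Sp7* 15.1-fold from 5 UMIs and *Runx2* 4.03-fold. In the 13 other clusters, *Dlx5* was 9.48-fold, *Sp7* 8.61-fold and *Runx2* 2.86-fold higher, so the direction was shared.

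Of 6 osteoblast genes tested, 5 were at least 2-fold higher at E17.5, and of 5 ligament genes 3 were. The filter tilts these counts in the same way. *Col1a2*, a chain of collagen I, stayed below the limit with a fold of 1.42, and the cartilage collagen *Col2a1* was lower by a factor of 4.24. *Alpl*, the alkaline phosphatase of mineralising cells, went from 6.20 CPM (3 UMIs) to 217 in PO2, with 412, 205 and 175 CPM under the 3 suffixes. *Acta2*, the smooth muscle actin of contractile and ligament-like cells, went from 55.8 to 300.0 CPM. The 10 genes with the largest stage folds included the growth factor *Igf2*, at 10.3 and 1860 CPM in PO2, and the tenascins *Tnn* and *Tnc*, beside *Srp54b* and *Gm10073*. *Tnn* had 0 UMIs at E15.5 and 493 CPM at E17.5, at least 79.5-fold higher against a limit of 3 UMIs, and *Tnc* had 8.26 and 459 CPM. In PO1 *Igf2* stood at 14.2 and 1887 CPM and in the 13 other clusters at 46.0 and 1955, so this gap was not particular to PO2.

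In the other direction, *Kitl*, the ligand of the receptor KIT, had 124 CPM at E15.5 and 1 UMI at E17.5 in PO2. *Sfrp5*, a secreted Wnt inhibitor, had 169 CPM at E15.5 and 0 UMIs at E17.5, at least 91.4-fold lower. *Egfl6*, an extracellular matrix protein, had 783 and 8.64 CPM, and the transcript *Gm12216* had 161 CPM and 2 UMIs. PO1 had the same direction for these genes, with 761 CPM of *Egfl6* and 97.5 of *Kitl* at E15.5.

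Stress and erythroid genes moved with these differences. Of 8 stress genes tested, 6 were at least 2-fold lower at E17.5 in PO2, with *Jun* at 845 and 132 CPM and *Fosb* at 248 and 30.9. The 4 erythroid genes tested were all lower, with a median fold of 0.0591 in PO2 and 0.0507 in PO1, and *Hbb-bs* stood at 4007 and 247 CPM. The 2 matrices were also counted against gene lists of different size, 31053 genes for E15.5 and 27998 for E17.5, with 27514 in common. The part of these in the stage differences was not tested.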

How the data were processed

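Single cells of wild-type mouse coronal sutures were measured at E15.5 and E17.5, 1 deposited matrix per stage. The authors deposited UMI count matrices without normalization, counted with Cell Ranger on mm10. They also deposited a table of labelled cells with Seurat 3.2.0 cluster labels, mitochondrial and haemoglobin percent values, and S and G2/M score values. According to the paper, cell cycle scores were regressed in each dataset before clustering. FastQC 0.11.7 and MultiQC 0.9 are also named in the submitters' processing notes. At E15.5 the table's UMI totals were a median of 1.35 times those of the deposited matrix, and 5 of its cells were not found in the matrix, whereas at E17.5 the ratio was 1.

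Cells had to hold 1000 UMIs and 1000 genes or more, and no more than 7.5% of mitochondrial or 3% of haemoglobin UMIs. Labelled cells stayed in regardless, which gave 8210 and 8767 cells. At E15.5, 93 labelled cells were outside these limits, and no PO2 cell was. Counts were summed per cluster and divided by the cluster's total (Python 3.11.15, numpy 2.4.6, pandas 2.3.3, scipy 1.17.1). No test was run. Genes needed an identifier in both gene lists and at least 20 UMIs in the 2 groups together in each library, and a fold counted where it reached 2 in both libraries in the same direction. Stage folds needed 50 UMIs. A count of 0 was set to a limit of 3 UMIs for ranks, medians and the folds of ranked genes. The 2-fold calls used the counts as they were, so a gene with 0 UMIs in the lower group passed the limit. UMIs of 1 cell are not independent samples of embryos.

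Doublet scores came from Scrublet in scanpy 1.11.5 with 6% of doublets assumed. The automatic threshold marked 415 and 41 cells, and since 41 of 8767 is too few to be usable, the 94th percentile of each barcode suffix was used. Myeloid background cells were unlabelled cells with UMIs of all 5 of *C1qa*, *C1qb*, *C1qc*, *Csf1r* and *Pf4* and at least 2000 CPM of their sum (271 and 554 cells), of which 19 and 23 under 5000 UMIs were left out of thinned shares. The thinned PO2 cells were all 35 and all 76. The nearest cluster was the one with the highest multinomial likelihood over genes that differ at least 4-fold among the 13 clusters, have at least 50 UMIs and lie outside the cell cycle lists. Promoters are from the RefSeq table of GRCm38.p6, gene positions from GENCODE vM21.

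The genes named are the listed genes by role, the 10 with the largest smaller fold in each direction against PO1, the 10 against the 13 other clusters, and the 5 with the largest stage fold each way. 1 gene of the last group is not reported here. PO2 and all gene lists were chosen with earlier results of these data known. Alternatives were another fold limit, other filters, single barcode suffixes, other denominators, restricted PO1 cells and cells without doublets. The fold rule was tested on simulated data.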

Additional observations from a re-analysis of the deposited data

Results flagged for a closer look

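*Sp7* differed in its fold of PO2 over PO1 between the stages. It was 5.27 at E15.5 (1.13 to 26.6), resting on 5 UMIs in PO2 and 4 in PO1, and 0.865 at E17.5 (0.753 to 0.991). *Hba-a1*, a haemoglobin gene, had a fold of 0.882 at E15.5 and 1.30 at E17.5. Neither difference between the stages was tested, since each stage is 1 library.

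Cells that carry no label also held cells with the cell cycle profile of PO2. Of 2875 unlabelled cells at E15.5, 121 (4.21%) had S and G2/M list shares within the PO2 range, and of 1937 at E17.5 it was 185 (9.55%). In these cells *Cenpf* stood at 814 and 448 CPM. *C1qb*, a macrophage gene, was found in 26.4% and 65.4% of them, at 309 and 898 CPM, against 5.71% and 40.8% of PO2 cells, at 4.13 and 22.9 CPM. *Runx2* stood at 16.7 and 78 CPM and *Sp7* at 2.22 and 89.1 CPM in the same cells.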

How the results depend on the processing

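No paired analysis was possible because each stage is 1 library and no result comes from a test. Of 79 values recomputed for the main results, 59 stayed within 1.5 times the main count or within the interval, and 20 moved. Against PO1, restricting PO1 to cells with a G2/M score above 0 and above their S score left 77 genes at least 2-fold lower in PO2 instead of 152. A 1.5-fold limit gave 279 higher and 385 lower genes, and no filter beyond 1 UMI gave 260 and 1176. Against the 13 other clusters, the 1.5-fold limit gave 969 higher genes. The share of PO2 was 2.72% and 2.22% of the 6 osteogenic clusters, 16.8% and 17.3% of PO1 and PO2, and 0.81% under suffix 1 of E17.5.

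Stage counts moved too. Suffix 1 alone gave 134 higher and 233 lower genes at E17.5, suffix 2 gave 226 higher and suffix 3 gave 272 higher. The 1.5-fold limit gave 972 and 821. In alternatives chosen after seeing the data, dividing each fold by that of the 13 other clusters left 267 higher and 189 lower, and leaving out genes past the limit there left 247 lower. So divided, the stage folds turned for *Srp54b* (0.754) and for *Sfrp5* (0.167 in the direction of E15.5 over E17.5). The value of *Sfrp5* rests on its 0 UMIs in PO2 at E17.5, set to the limit of 3 UMIs, and on 0.0239 CPM in the 13 other clusters. With suffix 1 alone *Hist1h2ab* turned (0.946), on 1 UMI per library. For *Srp54b* and *Hist1h2ab* the cause was not tested. The 10 genes named as higher in PO2 than in PO1 kept 2-fold in 110 of 110 recomputed values, and those named as lower in 105 of 110. Sizes moved more: with cells thinned, the smaller fold went from 19.5 to 5.86 for *Ccne2*, from 10.7 to 2.99 for *Hist1h1a* and from 4.63 to 2.76 for *Cep89*. With PO1 restricted it went from 12.9 to 5.14 for *Chaf1b*, and with suffix 1 alone from 27.3 to 13.3 for *Hist1h1b*.

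Depth limits PO2 most at E15.5, where its cells hold 484155 UMIs, so 3 UMIs stand for 6.2 CPM, and folds of genes with few UMIs there are imprecise. Intervals cover counting error only, not embryos or batches.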
